A study of Arabidopsis thaliana with 6 samples.

Results

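The aquaporins of Arabidopsis are a family of membrane channel genes. Here 35 of them were described in cells sorted as quiescent center (QC) cells from WT and bravo-2 roots. They were taken by gene identifier from the 37336 genes listed in each library and fall into 13 plasma membrane intrinsic proteins (PIP), 10 tonoplast intrinsic proteins (TIP), 9 NOD26-like intrinsic proteins (NIP) and 3 small basic intrinsic proteins (SIP). Membership follows the family name and uses no measured value, although the family was picked for description with earlier results of these data known. The study asked which genes depend on BRAVO, an R2R3-MYB transcription factor, in the QC, the slowly dividing center of the root stem cell niche. Libraries were made from primary roots of 5-day-old seedlings, 3 of WT and 3 of the mutant bravo-2. In all 6 the cells carried GFP driven by the promoter of WOX5, a homeodomain transcription factor, which marked them for fluorescence-activated cell sorting after protoplasting. The RNA was amplified from low input with the SMART-Seq v4 kit before sequencing. What was sorted is therefore what the WOX5 promoter marked, and protoplasting and amplification were common to both genotypes. The labels number 3 replicates per genotype without saying whether they were separate sorts or separate plants. The study found the sorting to be confounded and corrected for it as a batch effect with the ARSyN method. Every p-value below therefore measures the spread between these libraries, which may be technical.

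Aquaporins form pores that let water, and in some members small uncharged solutes, cross a membrane down a gradient. PIPs sit mainly in the plasma membrane and TIPs in the membrane of the vacuole (the tonoplast), while SIPs are found in the endoplasmic reticulum. NIPs, named after a nodulin of soybean, include channels for boric acid and for arsenite. In roots, PIPs carry much of the water that crosses cells, and TIPs accompany the large vacuoles of expanding and differentiated cells.

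The 6 libraries ranged from 10990217 to 14425249 estimated counts, and none repeated another, since each pair had unequal counts for 22840 genes or more. Levels of 1 gene across libraries are given in CPM, counts scaled to library size by the TMM method, and 3 counts, the smallest number taken as shown, correspond to 0.216 to 0.284 CPM. That floor covers counting error only, because PCR copies of a molecule are counted as separate reads. BRAVO itself was at 13.4, 37.8 and 60.9 CPM across WT replicates 1, 2 and 3. Across the bravo-2 replicates it was at 13.9, 10.3 and 11.8 CPM. Its level alone did not set the library labelled WT replicate 1 apart from the mutant. WOX5 was at 80.8, 262 and 375 CPM across WT and at 447, 120 and 97.1 CPM across bravo-2. It was lowest in WT replicate 1, so the low BRAVO level of that library stood beside a low WOX5 level. Per length (in TPM, the deposited unit that corrects for transcript length), 5 QC genes summed to 349, 1313 and 1227 TPM for the WT libraries and 2618, 673 and 292 TPM for the mutant ones. A list of 6 root hair genes, which mark differentiated epidermis, reached 5303, 3318 and 4658 TPM for WT and 21.6, 1904 and 3789 TPM for the mutant. The sorted fraction thus held root hair transcripts above the QC genes in 5 of the 6 libraries, and bravo-2 replicate 1 stood apart, with the highest QC sum and almost none of the root hair transcripts. The sample titles also open with a code whose meaning the labels do not give. It ends in 3 for WT replicate 1 and bravo-2 replicate 3, in 1 for WT replicates 2 and 3 and in 2 for bravo-2 replicates 1 and 2, so that the endings 1 and 2 each hold 1 genotype only and cannot be told apart from it. In bulk RNA of this kind, fewer cells of a type and less RNA per cell cannot be told apart.

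The members share 1 pore design, in which a pair of short loops, each usually reading asparagine-proline-alanine (NPA), meet in the middle of the channel. The coding sequence of these boxes was read from the RefSeq annotation of TAIR10.1 for all 35 members. The third residue is where some NIPs and the SIPs depart from the more abundant subfamilies described below. Both boxes ended in an alanine codon in 27 members, the first box in 30 and the second in 31. All 13 PIPs and all 10 TIPs had alanine in both. The exceptions were all NIPs or SIPs. NIP2;1, NIP3;1, NIP4;1 and NIP4;2 had alanine in both boxes like the PIPs and TIPs. In the other NIPs the third codon changed in either box. It was gga in the second box of an arsenite channel and its closest relative, and tca and gtg in the first and second boxes of a boric acid channel. NIP6;1 had gta in the second box and NIP7;1 tcc in the first. The SIPs departed in the first box only, with acc, tgt and ttg. The windows below show 45 coding bases each, 5′ to 3′, with the 9 bases of the box in capitals. They come, in this order, from the most abundant PIP (chr4:16709665-16709709, plus strand) and TIP (chr3:9722908-9722952, minus strand), from the arsenite channel (chr4:10421896-10421940, minus strand), from both boxes of the boric acid channel (chr4:6431677-6431721 and chr4:6432351-6432395, minus strand) and from the pair of SIPs that were expressed (chr3:1073798-1073842 and chr3:21079414-21079458, minus strand), and each lies within 1 exon.
PIP2;7 second box: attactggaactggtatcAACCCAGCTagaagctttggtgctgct
TIP1;2 second box: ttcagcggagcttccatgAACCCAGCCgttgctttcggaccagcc
NIP1;1 second box: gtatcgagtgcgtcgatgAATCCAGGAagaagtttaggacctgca
NIP5;1 second box: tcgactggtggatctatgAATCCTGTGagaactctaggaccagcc
NIP5;1 first box: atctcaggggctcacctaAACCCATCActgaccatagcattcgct
SIP1;1 first box: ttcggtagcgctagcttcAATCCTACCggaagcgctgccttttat
SIP2;1 first box: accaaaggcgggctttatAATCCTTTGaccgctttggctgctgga

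The level of the whole family ranged more widely within bravo-2 than within WT. Per length (TPM, as deposited), the 35 members took 1.75%, 0.894% and 0.947% of all transcripts in WT replicates 1, 2 and 3 and 0.232%, 0.576% and 1.67% in bravo-2 replicates 1, 2 and 3. The summed level was 17126, 7037 and 8324 CPM over the WT libraries and 1598, 4704 and 17611 CPM over the mutant ones, so the mutant held both the lowest and the highest library and the genotypes overlapped. Of the 35 members, 34 had a count in at least 1 library, and 23 averaged 4 CPM or more in WT or in bravo-2, the limit for testing. Of these 23, 21 passed in both genotypes and 2 through bravo-2 alone. As many as 8 members were among the 100 genes with the highest TPM of a library (WT replicate 1), with 7 in bravo-2 replicate 3, 3 each in WT replicates 2 and 3 and 0 in bravo-2 replicates 1 and 2.

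The lowest library was the same for most of the family, and the highest was 1 of a pair. Bravo-2 replicate 1 was the lowest library for 21 of the 23 tested members, where it was the lowest for 33.8% of the 15739 genes tested. The highest library was WT replicate 1 for 7 members and bravo-2 replicate 3 for 15, together 22, where these 2 libraries, whose title codes share an ending, were the highest for 40.1% of all genes tested. The WT mean was over 2-fold above bravo-2 replicate 1 for 22 members, against 27.3% of the genes tested, and over 10-fold above it for 10, against 9.59%, where 0 counts were set to the level of 3. Bravo-2 replicate 2 lay below the lowest WT library for 19 members, all 11 tested PIPs among them, against 22.7% of the genes tested. Bravo-2 replicate 3 lay at or above the WT mean for 22, against 45.4%. The 2 members that passed the filter through bravo-2 alone, TIP1;3 and NIP3;1, are in the counts of 21, 15 and 22. Nothing is read from their place in them, because only their level in bravo-2 let them in.

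**Figure D1:**
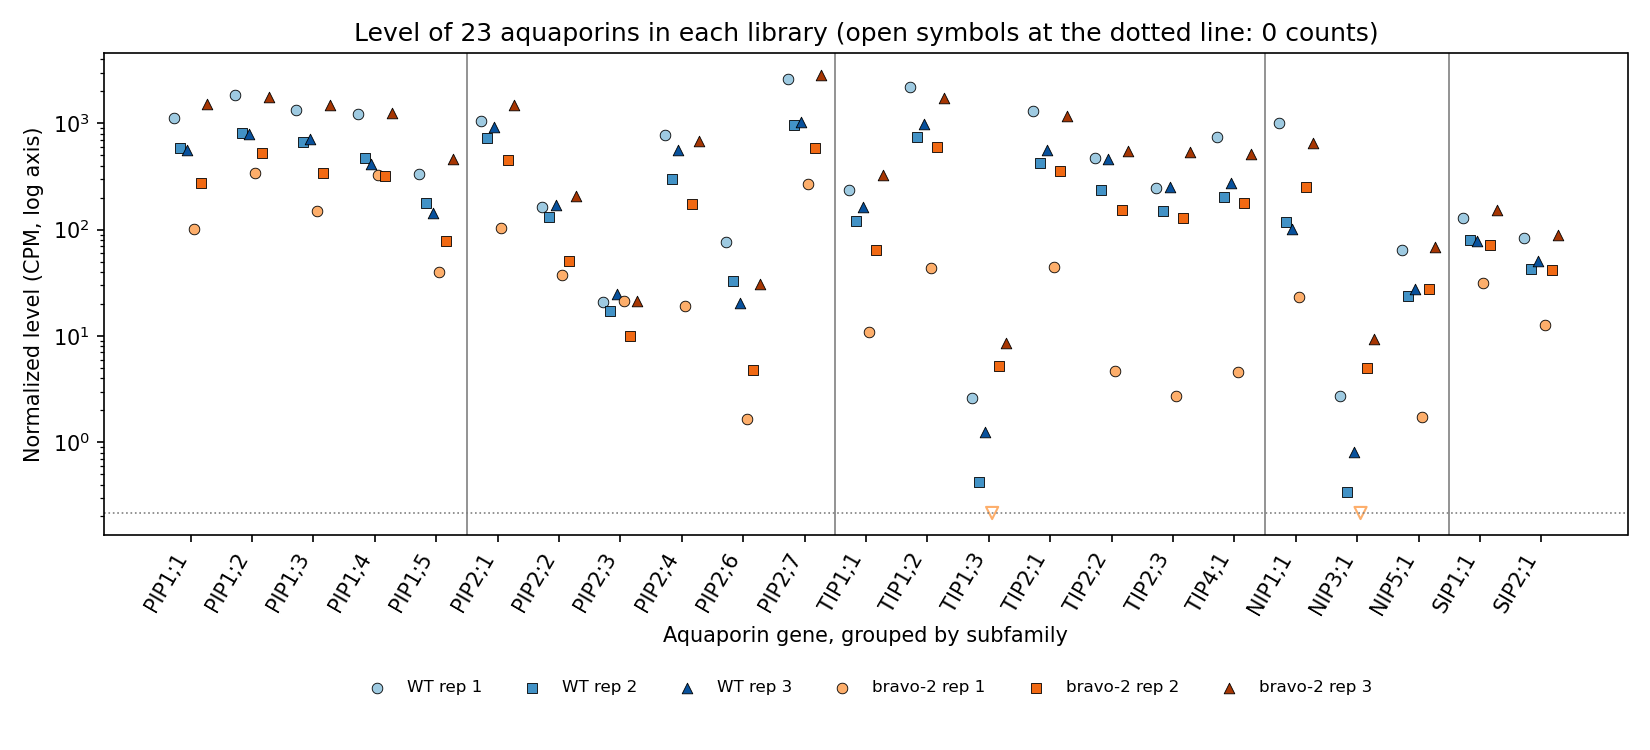
TMM-normalized level (CPM, log axis) of the 23 tested aquaporins in each of the 6 libraries, grouped by subfamily. Blue symbols are WT and orange symbols bravo-2, 1 point per library, and the open symbols at the dotted line of 0.216 CPM mark 0 counts. Bravo-2 replicate 1 (light orange circles) lies lowest for 21 of the 23 genes, and furthest below the others among the TIPs.

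The levels of different aquaporins were compared in TPM. In WT the most abundant member was PIP2;7, with a mean of 1749 ± 875 TPM (SD, n = 3). TIP1;2 followed with 1489 ± 726 TPM and the highest PIP1 gene with 1145 ± 478 TPM. The fourth, PIP2;1, reached 1052 ± 76.5 TPM with a narrower spread than the first to the third. The lowest of the 21 members that passed in both genotypes, a boric acid channel, had 25.1 ± 11.8 TPM. Neighbours in this order overlapped in their WT ranges throughout the 21, with 1 exception, at the step from PIP2;2 (196 ± 16 TPM) down to the higher SIP (111 ± 22.6 TPM). A gap then separated the 21 from the rest, since the next gene in the order had 3.89 ± 2.1 TPM and did not overlap the lowest of them. By these ranges the order holds between distant ranks and not between most neighbours. Compared within each library, the steps between neighbours in the 21 held in 2 to 6 of the 6 libraries. The most abundant gene was above the next in 5. The pair of expressed SIPs kept their order in all 6, and the lower of them was above the gene ranked next in all 6. Overlap of the WT ranges therefore does not show that neighbours changed places within a library.

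The 5 PIP1 genes encode plasma membrane channels that in maize need a PIP2 partner to reach the membrane. Their sum was 5895, 2699 and 2645 CPM over WT replicates 1, 2 and 3 and 959, 1544 and 6495 CPM over bravo-2 replicates 1, 2 and 3. PIP1;2 (AT2G45960), a contributor to the water permeability of roots that lies on chr2:18910081-18911982, was the most abundant of them per length, and its WT libraries held 1853, 807 and 799 CPM while the mutant ones held 341, 523 and 1768 CPM. As means these were 1153 ± 606 CPM (SD, n = 3) for WT and 877 ± 776 CPM (SD, n = 3) for bravo-2, a log2 fold change of -0.39 (SE 0.79) for bravo-2 over WT, so that values below 0 are lower in bravo-2. The 2 lower mutant libraries were under every WT library and the third was close to the highest, so the groups overlapped.

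The next PIP1 genes also spread more widely within bravo-2 than within WT. For PIP1;1 (AT3G61430) the WT values were 1135, 581 and 566 CPM and the mutant values 103, 276 and 1535 CPM, and the fold change was -0.25 (SE 0.98) on the log2 scale. PIP1;3 (AT1G01620) gave 1335, 664 and 719 CPM for WT against 149, 344 and 1476 CPM for the mutant, with a log2 fold change of -0.47 (SE 0.89). The least abundant of the group, PIP1;5 (AT4G23400), gave 336, 177 and 143 CPM for WT against 39.5, 78.4 and 458 CPM for the mutant, at -0.19 (SE 0.91). In all 3 genes bravo-2 replicate 3 was above the highest WT library, and bravo-2 replicates 1 and 2 were below the lowest. PIP1;4 (AT4G00430) differed in that its mutant replicates 1 and 2 were alike, with 327, 323 and 1257 CPM in bravo-2 and 1236, 470.4 and 417 CPM across WT, and its fold change was -0.16 (SE 0.78). The WT mean was 2.17-fold above bravo-2 replicate 1 for this last gene and up to 7.42-fold above it for the others. Each PIP1 fold change was smaller than its standard error.

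The PIP2 genes encode the more active water channels of the plasma membrane. Of 8, 6 passed the filter, and the group summed to 4702, 2182 and 2719 CPM over the WT libraries and 451, 1273 and 5298 CPM over the mutant ones. PIP2;7 (AT4G35100), on chr4:16708361-16710407, had WT values of 2609, 963 and 1027 CPM, a mean of 1533 ± 932 (SD, n = 3). Its mutant values were 267, 583 and 2858 CPM, averaging 1236 ± 1414 (SD, n = 3). The difference between the means was smaller than the spread within either genotype, and the log2 fold change was -0.31 (SE 0.97). PIP2;1 (AT3G53420), a main water channel of roots on chr3:19803473-19805730, was even across WT, with 1060.4, 730.5 and 915 CPM, and spread from well below to well above those values across the mutant, with 104, 450.0 and 1498 CPM. Its means were 902 ± 165 CPM (SD, n = 3) for WT and 684 ± 726 CPM (SD, n = 3) for bravo-2, at a log2 fold change of -0.40 (SE 0.90). Its spread lay in the mutant rather than in WT.

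The next pair of PIP2 genes were further below WT in bravo-2 replicate 1. PIP2;4 (AT5G60660), a root channel that also passes hydrogen peroxide, gave 771, 300.1 and 557 CPM over WT and 19, 174 and 684 CPM over bravo-2, so its WT mean was 28.6-fold above bravo-2 replicate 1. The log2 fold change was -0.89 (SE 1.09), and it stayed below 0 with each library left out in turn (-2.51 to -0.35). PIP2;6 (AT2G39010), on chr2:16291280-16294101, gave 76.2, 33 and 20.5 CPM over WT, a mean of 43.2 ± 29.3 (SD, n = 3), and 1.65, 4.75 and 30.5 CPM over bravo-2, a mean of 12.3 ± 15.8 (SD, n = 3). Here bravo-2 replicate 2 was low along with replicate 1, and replicate 3 lay inside the WT range. Of the 23 tested members it was furthest below 0, at a log2 fold change of -1.81 (SE 1.04), with -3.77 to -1.08 when single libraries were left out. Its adjusted p was 1.00 (edgeR) and its two-sided exact permutation p over the 6 libraries was 0.2, where 0.1 is the smallest that 3 against 3 allows.

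The last pair of PIP2 genes are near-identical neighbours on chromosome 2, 2612 bases apart and on opposite strands (chr2:15613368-15615022, minus, and chr2:15617635-15619155, plus). Their coding sequences were identical at 813 of 858 bases (94.8%), with a longest shared run of 242 bases, so reads can fit both genes and the counting had to divide them. A stretch of 120 bases that holds 16 of the 45 differences is shown, with the differing bases in capitals, since it marks where a read can tell the pair apart (coding positions 415 to 534, chr2:15614137-15614256 and chr2:15618314-15618433).
PIP2;2: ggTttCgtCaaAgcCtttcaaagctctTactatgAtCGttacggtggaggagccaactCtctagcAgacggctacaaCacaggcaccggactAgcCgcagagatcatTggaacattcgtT
PIP2;3: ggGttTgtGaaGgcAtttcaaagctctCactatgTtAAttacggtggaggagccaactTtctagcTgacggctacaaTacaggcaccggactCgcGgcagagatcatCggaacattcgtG
Both genes, and none of the other members, had fractional counts in all 6 libraries, where 23 members had whole counts throughout. The posterior standard deviation of their counts was 4.32 to 7.85 counts. PIP2;2 (AT2G37170) gave 162, 133 and 169 CPM for WT and 37.4, 50.6 and 206 CPM for bravo-2, with the mutant again on both sides of WT, at a log2 fold change of -0.66 (SE 0.69). For PIP2;3 (AT2G37180), also named RD28 for its response to desiccation, the WT libraries gave 21.1, 17.3 and 24.7 CPM and the mutant ones 21.5, 10 and 21.1 CPM, at -0.26 (SE 0.45) on the log2 scale. In this gene bravo-2 replicate 1 lay inside the WT range, which held for no other tested member. Its share in the counts of the pair was 11.5%, 11.5% and 12.8% for the WT replicates and 36.5%, 16.6% and 9.27% for the bravo-2 replicates, highest in bravo-2 replicate 1. How far the division of shared reads enters these values was not tested.

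The TIPs were the subfamily furthest apart between libraries. Of 10 genes, 7 passed the filter, and the group summed to 5237, 1885 and 2695 CPM over WT but to 111, 1484 and 4839 CPM over bravo-2. The WT mean of this sum was 29.5-fold above bravo-2 replicate 1, against 15.7-fold for the NIPs, 7.1-fold for PIP2, 3.9-fold for PIP1 and 3.26-fold for the SIPs. TIP1;2 (AT3G26520), a channel of the vacuolar membrane on chr3:9722443-9723904, had WT values of 2206, 751 and 981 CPM, a mean of 1312 ± 782 (SD, n = 3). Its mutant values were 43.5, 600.5 and 1741 CPM, averaging 795 ± 865 (SD, n = 3), at a log2 fold change of -0.72 (SE 1.13). Bravo-2 replicate 3 lay between WT replicates 3 and 1 and bravo-2 replicate 2 under the lowest WT library, while replicate 1 was far below. TIP2;1 (AT3G16240), long known as delta-TIP, followed with 1317, 421 and 560.1 CPM across WT and 44.3, 356 and 1167 CPM across bravo-2, at -0.55 (SE 1.06), and part of its locus overlaps AT3G16250 and AT3G03265. TIP1;1 (AT2G36830), or gamma-TIP, found in the vacuoles of growing cells, gave 237, 121 and 165 CPM for WT and 10.9, 64 and 325 CPM for bravo-2, at -0.39 (SE 1.03). For these 3 genes the WT mean was between 16-fold and 30.2-fold above bravo-2 replicate 1.

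The other abundant TIPs were lower still in that library. TIP4;1 (AT2G25810), a root TIP on chr2:11012499-11014171, gave 751, 205 and 274 CPM for WT and 4.53, 179 and 511 CPM for bravo-2. It had 63 counts in bravo-2 replicate 1 against 9127 in WT replicate 1, and a log2 fold change of -0.82 (SE 1.28). TIP2;2 (AT4G17340) gave 474, 237 and 464 CPM for WT and 4.67, 152 and 551 CPM for bravo-2, at -0.73 (SE 1.24). In both genes bravo-2 replicate 1 held about the level of a gene near the filter, while bravo-2 replicates 2 and 3 were far above it. TIP2;3 (AT5G47450), which also passes ammonium, gave 248, 149 and 249 CPM for WT and 2.73, 127 and 535 CPM for bravo-2, both the lowest and the highest values being mutant. The WT means were 90.4-fold, 83.8-fold and 78.9-fold above bravo-2 replicate 1 for these 3 genes in turn. The log2 fold change of the last was 0.041 (SE 1.30), and it fell below 0, to -0.033, with upper quartile normalization. TIP1;3 (AT4G01470), best known from pollen, was near the limit of detection, with 2.63, 0.424 and 1.25 CPM across WT and 0, 5.26 and 8.62 CPM across bravo-2, where 0 counts allow up to 0.216 CPM. It passed the filter only through bravo-2, and its fold change of 1.68 (SE 1.5) on the log2 scale rests on mutant replicates 2 and 3.

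Among the 9 NIPs, 3 passed the filter. NIP1;1 (AT4G19030), through which arsenite enters roots, lies on chr4:10421521-10423508 and spread widely within WT, with 1008, 117 and 102 CPM and a mean of 409 ± 518 (SD, n = 3). The mutant values were 23.4, 253 and 653 CPM, averaging 310.0 ± 319 (SD, n = 3). Unlike in the PIPs, bravo-2 replicate 2 lay above WT replicates 2 and 3. The gene took 6.58%, 1.88% and 1.38% of the aquaporin TPM in the WT replicates and 1.73%, 6.02% and 4.17% in the bravo-2 replicates. Its log2 fold change was -0.40 (SE 1.26) and turned to 1.53 without WT replicate 1, the library with its highest level. NIP5;1 (AT4G10380), the channel that takes up boric acid when boron is scarce, lies on chr4:6431161-6435396 and gave 64.1, 23.8 and 27.4 CPM for WT and 1.73, 27.6 and 68.2 CPM for bravo-2, at -0.24 (SE 1.04). Its other mutant libraries lay close to or within the WT range, and bravo-2 replicate 1 had 24 counts. NIP3;1 (AT1G31885) gave 2.71, 0.339 and 0.808 CPM for WT and 0, 5 and 9.29 CPM for bravo-2, at 1.88 (SE 1.55). Like the pollen TIP above, it passed the filter through bravo-2 alone and had 0 counts in bravo-2 replicate 1.

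The SIPs, of the endoplasmic reticulum, varied less between libraries than the TIPs. SIP1;1 (AT3G04090) gave 129.5, 79.2 and 78.7 CPM for WT, a mean of 95.8 ± 29.2 (SD, n = 3), and 31.4, 71 and 154 CPM for bravo-2, a mean of 85.4 ± 62.5 (SD, n = 3), at a log2 fold change of -0.17 (SE 0.62). SIP2;1 (AT3G56950) gave 83.2, 42.9 and 50.8 CPM for WT and 12.6, 41.6 and 89.4 CPM for bravo-2, at -0.30 (SE 0.69). Bravo-2 replicate 1 was the lowest library for both, with the WT mean 3.05-fold and 4.69-fold above it. The locus of the latter overlaps AT3G56940 and AT3G08805, and reads from overlapping genes cannot be told apart without strand information, whose use in the counting is not given in the sources used here.

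The 12 members under the filter were low in both genotypes, and 10 of them were under 4 CPM in every library. PIP2;8 (AT2G16850) had 21, 46 and 76 counts in WT replicates 1, 2 and 3, or 1.73, 3.9 and 5.58 CPM, and 3, 1 and 0 counts in bravo-2. It was the only one of the 35 members with every WT library above every bravo-2 library, which held for 2.25% of the 26842 genes with a count. Its mutant counts were at or under the smallest number taken as shown. The seed genes TIP3;1 and BETA-TIP ranged over 0 to 1.03 and 0 to 1.02 CPM, and the pollen gene TIP5;1 had counts in 1 library only, 3 in bravo-2 replicate 3. Of the pollen NIPs, NIP4;1 had 0 counts everywhere and NIP4;2 had 3 in bravo-2 replicate 1 alone. Members best known from seeds and pollen were thus at or near 0, apart from the pollen TIP above. NIP2;1, known from hypoxic roots, ranged over 0.431 to 3.14 CPM and NIP1;2 over 0.493 to 2.18 CPM. The boric acid channels of shoot nodes and anthers, NIP6;1 and NIP7;1, ranged over 0 to 2.04 and 0 to 1.44 CPM. PIP2;5 reached 1.61 CPM at most. SIP1;2 ranged over 0.17 to 4.03 CPM and was highest in bravo-2 replicate 1, the reverse of the other SIPs. The loci of 6 of the 12 overlap another annotated gene.

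The make-up of the family, per length, was similar in 5 libraries and different in the other. PIP1 took 31.1%, 35.1% and 29% of the aquaporin TPM in WT and 55.8%, 29.5% and 33.6% in bravo-2. PIP2 took 27.9%, 31.9% and 33.1% in WT and 30.8%, 27.4% and 30.7% in bravo-2. TIP took 32.9%, 29% and 34.6% in WT and 7.92%, 34% and 29.7% in bravo-2. In bravo-2 replicate 1 the PIP1 share was thus above, and the TIP share below, that of every other library, while the PIP2 share stayed within the range of the others. The ratio of TIP to PIP transcripts was 0.558, 0.433 and 0.557 in the WT replicates and 0.0914, 0.597 and 0.462 in the bravo-2 replicates. Within the PIPs, PIP2 over PIP1 was 0.896, 0.908 and 1.14 for WT and 0.551, 0.929 and 0.916 for bravo-2. Both ratios were lowest in bravo-2 replicate 1. The NIP share was 6.85%, 2.19% and 1.63% in WT and 2.05%, 6.59% and 4.5% in bravo-2, and the SIP share was 1.32%, 1.89% and 1.67% in WT and 3.42%, 2.53% and 1.47% in bravo-2. As means, the TIP share was 32.2% ± 2.89 (SD, n = 3) for WT and 23.9% ± 14 (SD, n = 3) for bravo-2, and the genotypes overlapped.

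**Figure D2:**
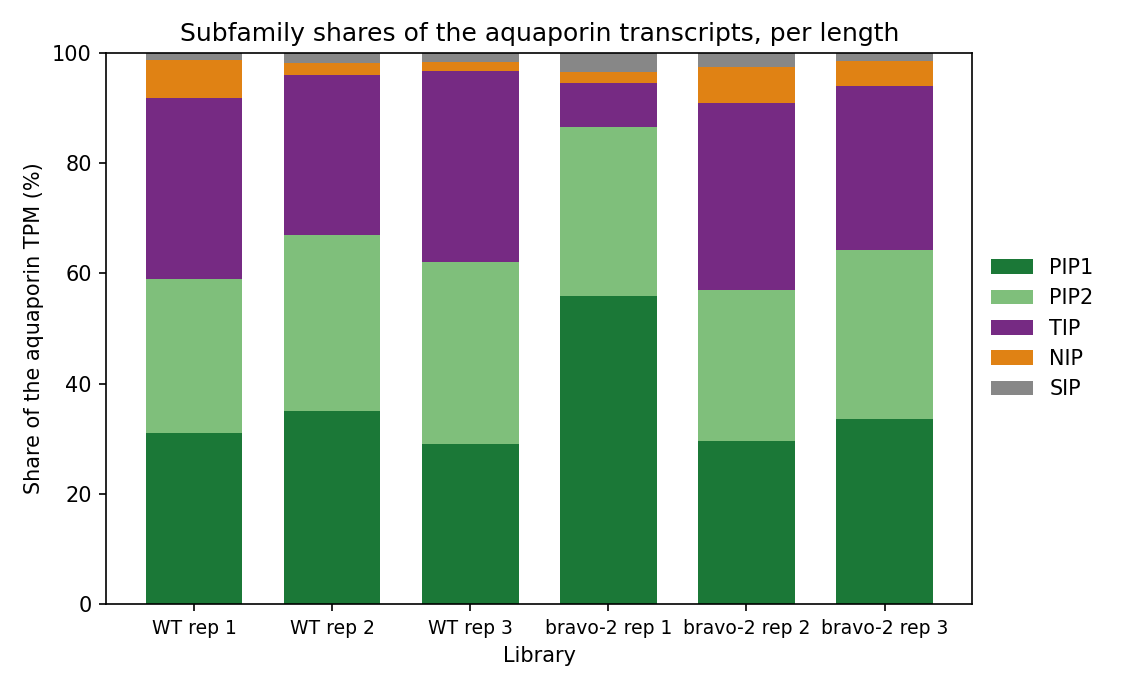
Share (%) of each subfamily in the summed TPM of the 35 aquaporins, 1 stacked bar per library from 0 to 100%. TIPs (purple) take 29% to 34.6% of the bar in 5 libraries and 7.92% in bravo-2 replicate 1, where PIP1 (dark green) takes 55.8%.

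When bravo-2 was compared with WT, no aquaporin passed the test's threshold. Of the 23 members, 0 had an adjusted p under 0.05 (edgeR's quasi-likelihood test, Benjamini-Hochberg over all genes tested), and among all 15739 genes the percentage called was 0.0%. An unadjusted p under 0.05 was reached by 0 members as well, against 0.794% of all genes, and DESeq2 called 13 genes, of which 0 were aquaporins. The adjusted p was 1.00 for all 23 (edgeR), and their two-sided exact permutation p lay between 0.2 and 0.9. The genotypes did not overlap for 0 of the 23 members, against 3.67% of the genes tested (1.99% with bravo-2 lower). By the sign of the fitted value, 20 members were lower in bravo-2 and 3 were higher, where 45.7% of all genes were lower. Of the 3, 2 passed the filter through bravo-2 alone, where they were high, so nothing is read from their sign. The remaining 1, TIP2;3, was close to 0, at 0.041. The median log2 fold change of the members was -0.39, beside 0.039 over all genes, and their standard errors ran from 0.45 to 1.55.

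That sign turned for 14 of the 23 members when single libraries were left out. Without bravo-2 replicate 1, 10 of 23 members were lower in bravo-2, with a median of 0.15, where 50.3% of all genes were lower. The 2 members at an unadjusted p under 0.05 in that fit, beside 2.21% of all genes, were the pair that passed the filter through bravo-2 alone and had 0 counts in the library left out, so nothing is read from them. Without WT replicate 1, 11 of 24 were lower, beside 43.6% of all genes, the median was 0.092, and 1 member was at an unadjusted p under 0.05, beside 0.752% of all genes. That member entered the test only through WT, where it was high, once WT replicate 1 was out, and nothing is read from it either. The largest move came on leaving out bravo-2 replicate 3. All 21 members then tested were lower, beside 46.9% of all genes, and the median was -1.87. The pair that passed the filter through bravo-2 alone was not among them. At an unadjusted p under 0.05 were 8 members (7 PIPs and 1 TIP), beside 5.5% of all genes, with 0 called after adjustment. The bravo-2 libraries left in that fit were those with the lowest aquaporin sums of the 6.

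The ending of the title code was also entered as a term in the fit, an alternative chosen after seeing the data. The difference between genotypes then rests on WT replicate 1 against bravo-2 replicate 3 alone, with the spread taken from the pairs of libraries that share genotype and ending. Of the 23 members, 7 were lower in bravo-2, beside 52.7% of all genes, and the median log2 fold change was 0.13. No member had an adjusted p under 0.05 (0 of all genes did) or an unadjusted p under 0.05 (edgeR), beside 1.25% of all genes at the unadjusted level. In all, 13 members that were below 0 in the fit without the term were above it here. The member furthest below 0 was again PIP2;6, at -1.32.

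The call depended on the treatment of variation within genotypes. The leading principal component of the residuals held 78.7% of the variation around the genotype means. With it removed, a limma test called 7 members, all lower in bravo-2, among 676 genes or 4.3% of those tested (4.01% lower). The 7 were 3 PIPs and 4 TIPs, with log2 fold changes between -2.29 (PIP2;6, adjusted p = 0.0251) and -1.02 (a PIP1 gene, adjusted p = 0.0448). The same genotype means gave 0 calls by limma without the removal. The removal took out spread between replicates with no loss of degrees of freedom in the test, so these p-values are too small.

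**Figure D3:**
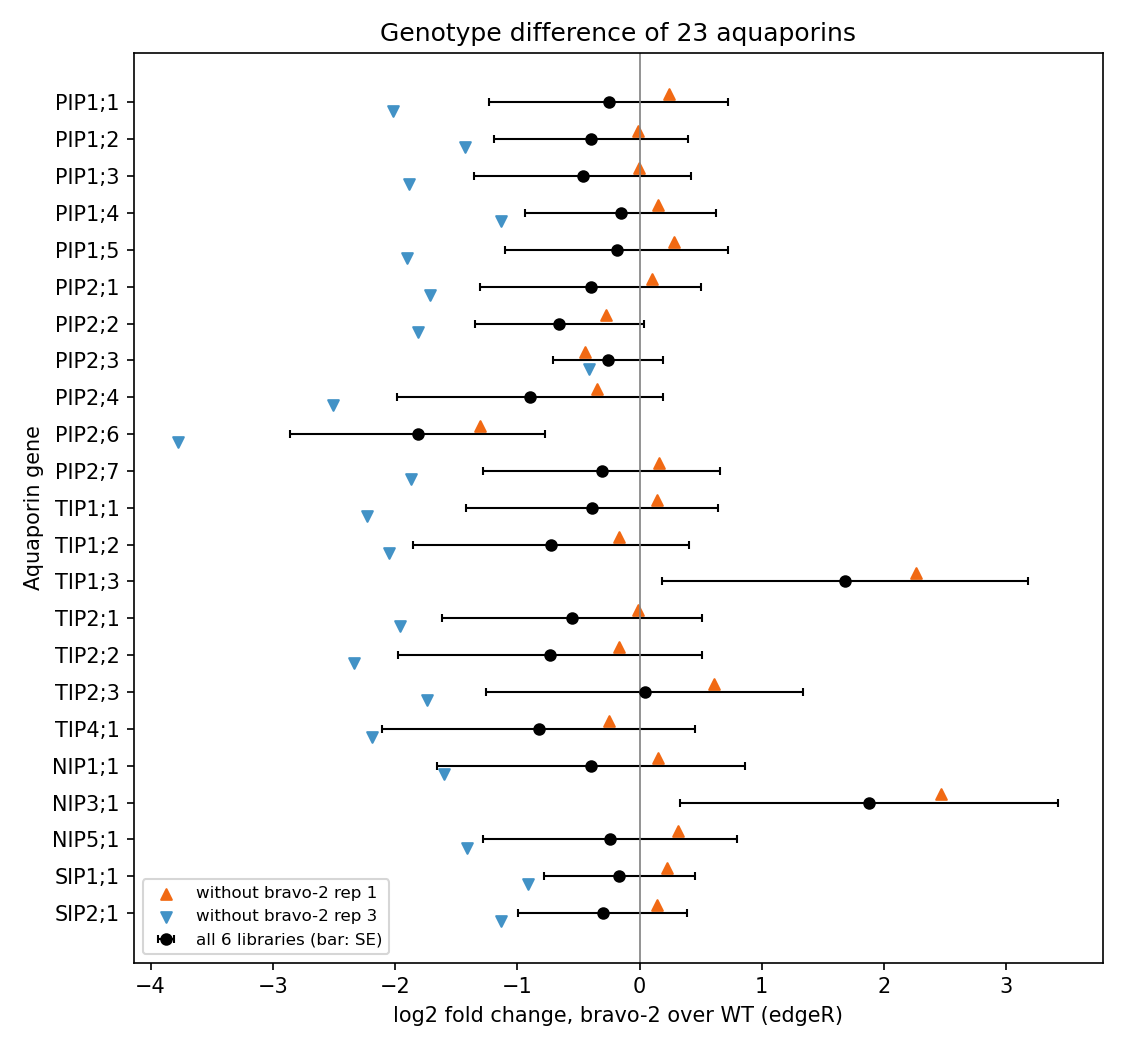
Log2 fold change of bravo-2 over WT for the 23 tested aquaporins (edgeR). Black points with bars give the value and standard error over all 6 libraries, orange triangles the value without bravo-2 replicate 1 and blue triangles the value without bravo-2 replicate 3, which the 2 members lifted over the filter by that library lack. The blue triangles all lie below 0 (median over the tested members -1.87), and the orange ones lie on both sides of it (median 0.15).

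Several markers of cell types were lowest or highest in the same libraries as most aquaporins. All 6 root hair genes were lowest in bravo-2 replicate 1, as were 21 of the 23 aquaporins, against 33.8% of the genes tested. RHD6, a regulator of root hair formation, had 0.0719 CPM there, under the smallest level taken as shown. The summed root hair level was 5827, 2823 and 4435 CPM over WT and 15.9, 1722 and 4434 CPM over bravo-2. It was thus alike in WT replicate 3 and bravo-2 replicate 3, where the aquaporin sum was 8324 and 17611 CPM. Of the 5 QC genes, 4 were highest in bravo-2 replicate 1, and the other, BRAVO, the gene mutated in bravo-2, in WT replicate 3. The share of all genes highest in bravo-2 replicate 1 was not taken. PLT1 made up most of the QC sum, at 311, 871 and 723 CPM over WT and 1519, 507 and 244 CPM over bravo-2. AGL42 had 2.3 to 16.5 CPM. The QC sum was lowest in WT replicate 1 and bravo-2 replicate 3, the libraries with the highest aquaporin sums. Stele genes summed to 349, 172 and 147 CPM over WT and 112, 127 and 311 CPM over bravo-2, nearly all of it WOL, a cytokinin receptor, which was highest in those libraries too (338, 168 and 139 CPM over WT and 111, 111 and 298 CPM over bravo-2). SHR and SUC2 were low and highest elsewhere, with 5.51 CPM in WT replicate 3 and 9.75 CPM in bravo-2 replicate 2. APL and VND7, also low, were highest in bravo-2 replicate 3 (3.51 CPM) and WT replicate 1 (0.658 CPM). The endodermis markers differed among themselves. CASP1, which builds the Casparian strip of differentiated endodermis, gave 109, 0.848 and 89.8 CPM over WT and 3.45, 5.43 and 99.6 CPM over bravo-2, highest in WT replicate 1 and bravo-2 replicate 3 like the aquaporins. Its regulator MYB36 gave 15.5, 6.53 and 15 CPM over WT and 4.53, 4.49 and 6.44 CPM over bravo-2. SCR, which the QC also expresses, ran the other way, with 96.5, 232 and 314 CPM over WT and 639.7, 159.5 and 69.5 CPM over bravo-2, and made up most of the list's sum in 4 of the 6 libraries (221, 239.8 and 419 CPM over WT and 648, 169 and 175 CPM over bravo-2). Root cap genes summed to 159, 157 and 97.2 CPM over WT and 102, 63.9 and 72 CPM over bravo-2, and 2 of the 4 were highest in WT replicate 1 or bravo-2 replicate 3. The cortex pair summed to 21, 23.4 and 19.5 CPM over WT and 51, 10.9 and 3.88 CPM over bravo-2. The part of these cell types in the aquaporin levels was not tested.

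**Figure D4:**
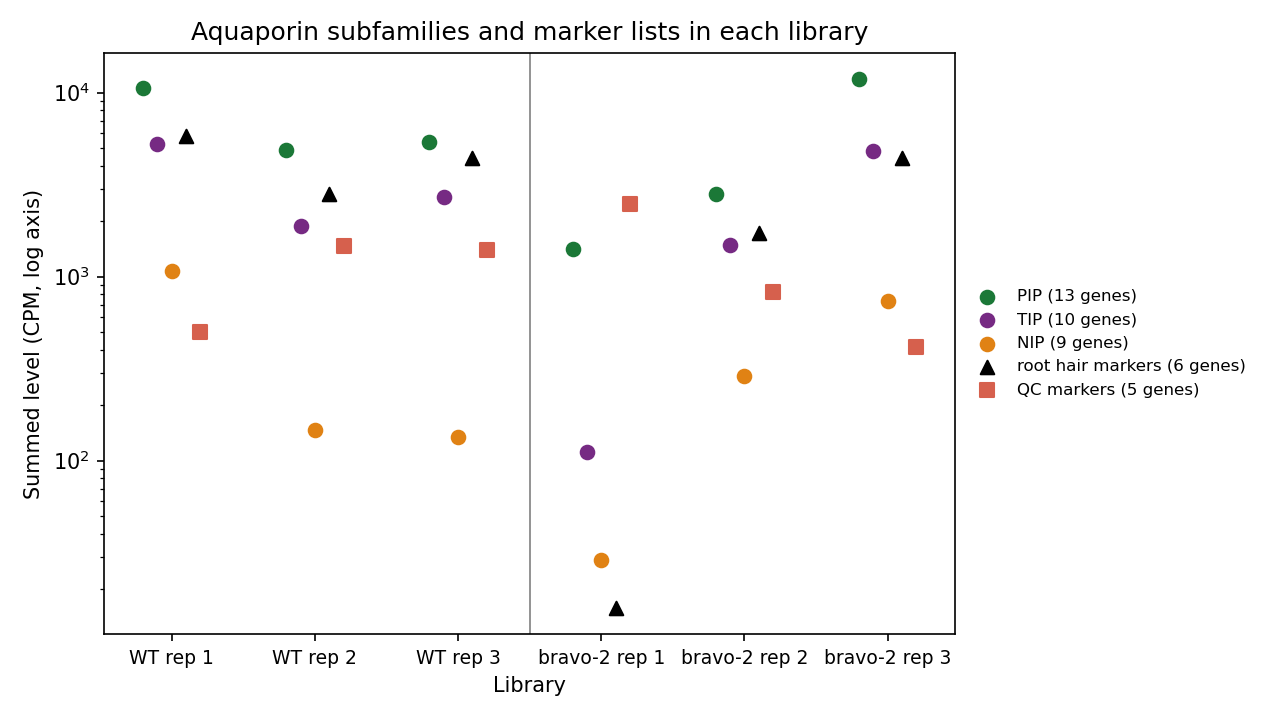
Summed level (CPM, log axis) of the PIP, TIP and NIP genes and of the root hair and QC marker lists, 1 point per library and list. From bravo-2 replicate 1 to WT replicate 1 the TIP sum (purple) spans 111 to 5237 CPM and the root hair sum (black triangles) 15.9 to 5827 CPM, while the QC sum (red squares) is highest in bravo-2 replicate 1.

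Genes that act with aquaporins were read from the same fit. Of all genes tested, 45.7% were lower in bravo-2 by sign, and bravo-2 replicate 1 was the lowest library for 33.8%. Of 6 genes for the delivery and modification of aquaporins, such as the SNARE proteins SYP121 and SYP61 that bring PIPs to the plasma membrane and the ubiquitin ligase RMA1, 5 were tested, 1 lower and 4 higher in bravo-2 by sign, with a median log2 fold change of 0.034. All 8 proton pump genes of the plasma membrane and tonoplast, which build the gradients that drive solute uptake, were tested, 7 lower and 1 higher, with a median of -0.13. Their summed level was 9864, 3889 and 4415 CPM over WT and 1215, 4359 and 10379.7 CPM over bravo-2, and 7 of the 8 were lowest in bravo-2 replicate 1. Unlike for the aquaporins, the sum of bravo-2 replicate 2 lay within the WT range. Of 8 ion and boron transporters, 6 were tested and all 6 were lower, with a median of -0.34 and a range from -0.62 to -0.052. Of these 6, 3 were lowest in bravo-2 replicate 1 and 2 were highest there, BOR1 (70.3 CPM) and NHX2 (56 CPM). Across the 3 lists 0 genes had an adjusted or an unadjusted p under 0.05 (edgeR), against 0.794% of all genes at the unadjusted level, and 0 had genotypes that did not overlap, against 3.67%. The medians of the first and second lists turned sign when single libraries were left out.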

How the data were processed

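Expression was measured by RNA-seq of cells sorted as QC cells by WOX5 promoter GFP, in 3 WT and 3 bravo-2 libraries. The authors removed adapters (cutadapt), aligned reads to TAIR10 (STAR) and counted by RSEM over the Araport11 transcripts. Tool versions are not given in the sources used here. They deposited per gene an expected count, which is not normalized, a TPM, an effective length and a posterior standard deviation of the count. RSEM divides reads between genes they match equally well. Expected counts were rounded. A gene was tested if WT or bravo-2 averaged 4 CPM or more (15739 of 37336), with TMM scaling and edgeR's quasi-likelihood test, genotype only, at an adjusted p of 0.05. Printed CPM are TMM-normalized, on the library sizes of the genes tested. Deposited TPM served between genes.

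Total counts per library were 10990217 to 14425249. Every aquaporin past the filter was named with its values and the others with their range. Members and lists were chosen with earlier results of these data known. The alternatives were upper quartile normalization, DESeq2, a filter of at least 1 count, a filter of 10 counts in every library, limma with a pseudocount of 1 on log2 CPM, limma after taking out the leading residual component in place of ARSyN (the labels do not say which libraries shared a sort), a replicate block and leaving out each library. Chosen after seeing the data, the last digit of the code in the sample titles, of unstated meaning, was added as a term. NOISeqBIO was not run. Gene models and sequences came from RefSeq TAIR10.1, whose transcript length equalled the deposited one for 20638 of 20641 single-transcript genes. Software was R 4.3.3 (edgeR 4.0.16, limma 3.58.1, DESeq2 1.42.0) and Python 3.11.15 (pandas 2.3.3, numpy 2.4.6, scipy 1.17.1, matplotlib 3.10.9, Biopython 1.88, pysam 0.24.0).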

Additional observations from a re-analysis of the deposited data

How the results depend on the processing

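The count of 0 genes called was 13 with DESeq2, 1 with all genes that had a count, and 676 after removal of the first residual component, where 7 aquaporins were called. It was 0 under upper quartile normalization, the filter of 10 counts, limma, the block and each library left out. The cause of these differences was not tested. The median log2 fold change of the tested aquaporins was -0.40 with upper quartile normalization, -1.03 with limma and between -1.87 and 0.15 with single libraries left out. Leaving out single libraries turned the sign for 14 of the 23, with ranges of -2.02 to 0.24 for PIP1;1, -1.43 to 0.16 for PIP1;2, -1.14 to 0.55 for PIP1;4, -1.90 to 0.30 for PIP1;5, -1.71 to 0.10 for PIP2;1, -0.44 to 0.016 for PIP2;3, -1.87 to 0.35 for PIP2;7, -2.23 to 0.15 for TIP1;1, -1.96 to 0.12 for TIP2;1, -1.74 to 0.61 for TIP2;3, -1.60 to 1.53 for NIP1;1, -1.41 to 0.37 for NIP5;1, -0.91 to 0.22 for SIP1;1 and -1.13 to 0.15 for SIP2;1. TIP2;3 was -0.033 with upper quartile normalization, -1.73 with limma (also after the component removal) and -1.13 with the replicate block, which turned NIP1;1 to 0.28. The block gave 0 calls, with 52 genes at an unadjusted p under 0.05 and an aquaporin median of -1.01. Deviations from the genotype means correlated across genes at -0.72, -0.069 and -0.43 for replicate numbers 1, 2 and 3, so no pairing by number was seen. The leading component held 78.7% of these deviations, and a pairing beneath it was not tested. Changes under the block are not read as weaker effects. With the ending of the title code as a term, 13 members turned to above 0, at 0.44 for PIP1;1, 0.15 for PIP1;3, 0.024 for PIP1;4, 0.45 for PIP1;5, 0.50 for PIP2;1, 0.35 for PIP2;2, 0.0054 for PIP2;3, 0.13 for PIP2;7, 0.45 for TIP1;1, 0.22 for TIP2;2, 0.089 for NIP5;1, 0.25 for SIP1;1, 0.10 for SIP2;1, with 0 calls and a median of 0.13. On CPM in place of TPM the WT share of PIP1 was 34.8% against 31.7%. The proton pump median ranged from -1.10 to 0.36 and the delivery list from -0.44 to 0.32 with single libraries left out. Low counts limit what can be said of the 12 untested members, while the spread between libraries limits the tested ones.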
